A study of Mus musculus with 3 samples.

Results

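The genes described here are 10 regulators of entry into the cell cycle: the Myc family (*Myc*, *Mycn*, *Mycl*), the D cyclins (*Ccnd1*, *Ccnd2*, *Ccnd3*) and the cyclin-dependent kinase inhibitors *Cdkn1a*, *Cdkn1b*, *Cdkn2a* and *Cdkn2b*. They were chosen by name, and all 10 were among the 27998 genes of the single-cell count matrices. The matrices came from flow-sorted EpCAM-positive epithelium of the small intestine of C57BL/6 mice, with 1 library for each of 3 genotypes and no replicate library. EpCAM is an adhesion molecule on the surface of epithelium. All mice were 7 to 8 weeks old when they received 2 doses of 2 mg tamoxifen. WT was the wild type, taken 21 days later. *LApc* carried Cre fused to a tamoxifen-responsive receptor under control of the *Lgr5* locus (*Lgr5-CreERT2*, per the study's methods an allele that also holds an EGFP reporter) and floxed alleles of the tumour suppressor *Apc* (*Apc* fl/fl), and was taken 29 days later. *LApcL* carried the same alleles and in addition *Lef1* fl/fl, a floxed transcription factor of the Wnt pathway, and was taken 21 days later. Recombination thus starts in the *Lgr5*-expressing stem cells, and an epithelium of this kind holds recombined and non-recombined cells side by side. Genotype, mouse and library cannot be told apart in this design, nor can the day for *LApc*, and the version of the droplet kit is not given per library. With 1 library a genotype no test was possible, and all intervals below are exact 95% intervals that cover counting error only.

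Myc proteins are transcription factors that dimerize with Max and raise the expression of genes for ribosome biogenesis and metabolism. In the intestine *Myc* is a classic target of Wnt signalling and is needed for the phenotype that follows loss of *Apc*. D cyclins bind and activate Cdk4 and Cdk6, which phosphorylate the retinoblastoma protein and so release E2F factors. The inhibitors act against this step in separate ways. The Ink4 proteins, p15 from *Cdkn2b* and p16Ink4a from *Cdkn2a*, bind Cdk4 and Cdk6 directly. The Cip/Kip proteins, p21 from *Cdkn1a* and p27 from *Cdkn1b*, bind cyclin-kinase complexes, and p21 is also known as a target of p53. *Cdkn2a* encodes a further protein from another first exon, p19Arf, which stabilizes p53.

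Coordinates are those of GRCm38 with GENCODE annotation, and all 10 members are protein-coding. *Myc* lies at chromosome 15, 61985391 to 61990374, plus strand, *Mycn* at chromosome 12, 12936093 to 12941914, minus strand and *Mycl* at chromosome 4, 122995652 to 123002485, plus strand. The D cyclins lie at chromosome 7, 144929931 to 144939925, minus strand (*Ccnd1*), chromosome 6, 127125162 to 127152193, minus strand (*Ccnd2*) and chromosome 17, 47505051 to 47599691, plus strand (*Ccnd3*), and each overlaps a gene of the opposite strand. *Cdkn1b* lies at chromosome 6, 134920401 to 134925513, plus strand. *Cdkn2a* (chromosome 4, 89274471 to 89294653, minus strand) and *Cdkn2b* (chromosome 4, 89306299 to 89311039, minus strand) are neighbours on the same strand, and both lay lower in the adenoma-enriched cells of *LApcL* than in those of *LApc*. *Cdkn1a* lies at chromosome 17, 29090976 to 29100727, plus strand, and among members at 5 CPM or more it had the largest ratio between adenoma-enriched and crypt-like cells. The promoters of these 3 genes are therefore printed here, as 250 bases before to 50 bases after each annotated start, from RefSeq on GRCm38.p6, 5′ to 3′, with capitals for the Sp1 box GGGCGG or its reverse complement CCGCCC. The upstream start of *Cdkn2a* is that of p19Arf and the downstream start that of p16Ink4a. The droplet assay counts the end of the transcript, which the products of both starts share, so the *Cdkn2a* values below do not separate them.
Cdkn2a, upstream start, chr4:89294570-89294869, minus strand: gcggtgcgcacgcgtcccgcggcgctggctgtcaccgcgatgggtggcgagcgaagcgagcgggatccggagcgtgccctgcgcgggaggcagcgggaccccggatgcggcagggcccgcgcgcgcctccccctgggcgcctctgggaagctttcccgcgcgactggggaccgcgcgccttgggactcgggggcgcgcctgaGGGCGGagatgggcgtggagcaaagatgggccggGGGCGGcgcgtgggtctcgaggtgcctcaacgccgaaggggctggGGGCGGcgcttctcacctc
Cdkn2a, downstream start, chr4:89282143-89282442, minus strand: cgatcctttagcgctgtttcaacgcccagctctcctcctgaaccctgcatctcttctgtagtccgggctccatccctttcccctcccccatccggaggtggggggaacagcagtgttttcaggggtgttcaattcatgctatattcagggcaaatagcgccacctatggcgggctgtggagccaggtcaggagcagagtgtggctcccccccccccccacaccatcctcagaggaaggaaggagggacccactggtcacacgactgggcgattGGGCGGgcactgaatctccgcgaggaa
Cdkn2b, chr4:89310983-89311282, minus strand: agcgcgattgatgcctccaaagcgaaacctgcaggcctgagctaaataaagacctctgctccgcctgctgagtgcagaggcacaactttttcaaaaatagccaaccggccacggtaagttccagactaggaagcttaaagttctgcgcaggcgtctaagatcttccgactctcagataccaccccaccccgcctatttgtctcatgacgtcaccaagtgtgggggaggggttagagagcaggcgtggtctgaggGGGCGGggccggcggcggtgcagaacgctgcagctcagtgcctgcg
Cdkn1a, upstream start, chr17:29090729-29091028, plus strand: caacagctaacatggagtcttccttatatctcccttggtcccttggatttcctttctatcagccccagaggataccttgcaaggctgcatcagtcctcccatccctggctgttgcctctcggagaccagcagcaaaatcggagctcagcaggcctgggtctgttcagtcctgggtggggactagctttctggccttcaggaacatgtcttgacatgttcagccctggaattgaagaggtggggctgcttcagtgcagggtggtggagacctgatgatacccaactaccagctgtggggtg
Cdkn1a, downstream start, chr17:29093519-29093818, plus strand: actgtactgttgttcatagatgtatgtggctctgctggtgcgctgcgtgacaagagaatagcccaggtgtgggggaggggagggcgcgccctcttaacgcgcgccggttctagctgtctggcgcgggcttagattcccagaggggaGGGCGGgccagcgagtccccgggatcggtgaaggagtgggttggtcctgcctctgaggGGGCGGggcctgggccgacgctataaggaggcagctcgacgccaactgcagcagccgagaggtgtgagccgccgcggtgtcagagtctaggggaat

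Of the 10 members, 7 had an entry in the promoter table, with 10 starts in all. *Myc*, *Ccnd1* and *Ccnd2* were the others. The upstream *Cdkn2a* promoter held 3 Sp1 boxes, 77.0% G and C and 45 CpG pairs, against a median of 52.7% and 7 pairs over the 32851 promoters of the table. Its downstream promoter held 12 CpG pairs and that of *Cdkn2b* 18. The starts of *Cdkn1a* differed: the upstream window held 2 CpG pairs and no Sp1 box, and the downstream window 23 CpG pairs and 2 Sp1 boxes. A Sp1 box on either strand was present in 35.7% of all promoters of this length. The E-box CACGTG, the preferred site of Myc with Max, was in 7.15% of all promoters and in none of the 10 windows of the members. The Tcf/Lef letters CTTTGA or TCAAAG were in 16.0% of all and among the members only in *Mycn*, and the E2F core GGCGGGA or TCCCGCC, which can overlap a Sp1 box, was in 11.3% and only in *Mycl*.

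The matrices held 11453 (WT), 13214 (*LApc*) and 17388 (*LApcL*) barcodes, of which 10138, 9601 and 14394 were kept, with a median of 9713, 6132 and 10156 unique molecular identifiers (UMIs, one per captured RNA molecule) a cell. *LApc* stood apart: 17.7% of its barcodes had over 20% mitochondrial UMIs, against 0.541% and 2.38%. Between 214 and 318 barcodes were shared by a pair of libraries. Clusters were built without the members and named from marker genes. Values are CPM, the UMIs of a gene over all UMIs of the summed cells of a class in a library, scaled to a common total, so fewer transcripts per cell and fewer expressing cells cannot be told apart. Cells named from stem and transit-amplifying markers were divided into subclusters. Those of which WT cells made up under 10%, with each library weighted to the same number of kept cells, are called adenoma-enriched. They held 1258 cells of *LApc*, 9190 of *LApcL* and 6 of WT. The rest are called crypt-like (3088, 2213 and 1268 cells of WT, *LApc* and *LApcL*). *Epcam* was found in 99.9%, 98.7% and 99.9% of the kept cells in the order WT, *LApc*, *LApcL*, and the leukocyte gene *Ptprc* in 1.21%, 0.667% and 0.542%. The adenoma-enriched cells held *Lef1* at 21.7 (*LApc*) and 3.62 CPM (*LApcL*), and *Apc*, whose remaining transcript this assay counts, was 49.2 and 37.2 CPM.

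Across the epithelium *Myc* was highest in adenoma-enriched cells, followed by crypt-like cells. It was 49.8 (45.5 to 54.4) CPM in the adenoma-enriched cells of *LApc* and 61.2 (59.7 to 62.7) CPM in those of *LApcL*. In crypt-like cells *Myc* was 31.3 (WT), 42.5 (*LApc*) and 32.9 CPM (*LApcL*). The adenoma-enriched range lay above the crypt-like one. The ranges of all later neighbours in the order overlapped, since the enteroendocrine-like cells of *LApcL* held 37.3 CPM against 11.3 and 9.04 CPM in WT and *LApc*. The lowest mean was in ileal enterocyte-like cells, with *Myc* at 2.66 (WT), 7.31 (*LApc*) and 13.1 CPM (*LApcL*). In each differentiated class the *LApcL* library held the most *Myc*.

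*Mycl* followed another order, with enteroendocrine-like and tuft-like cells beside the crypt-like ones. It was 31.5 (28.1 to 35.2) and 44.2 (43.0 to 45.5) CPM in the adenoma-enriched cells of *LApc* and *LApcL*. In enteroendocrine-like cells, the hormone-secreting class, *Mycl* was 10.9 (WT), 16.5 (*LApc*) and 34.5 CPM (*LApcL*). In tuft-like cells, the chemosensory class, it was 15.3 (WT), 16.9 (*LApc*) and 29.1 CPM (*LApcL*). These ranges overlapped each other and that of crypt-like cells, which was 16.0 to 23.3 CPM. In WT the enteroendocrine-like and tuft-like values were below the 18.6 CPM of crypt-like cells. Goblet-like cells, at 5.96 to 14.2 CPM, and Paneth-like cells, at 2.53 to 11.4 CPM, lay below the crypt-like range. *Mycn* was low everywhere. Its highest level was 8.33 (6.98 to 9.88) CPM in the crypt-like cells of *LApc*, where 133 UMIs were counted, and the ranges of all neighbouring classes overlapped.

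The D cyclins each had their own distribution. *Ccnd1* was highest in crypt-like cells, at 157 (WT), 122 (*LApc*) and 123 CPM (*LApcL*), followed by adenoma-enriched cells at 124 (*LApc*) and 102 CPM (*LApcL*), and these ranges overlapped. All other classes lay below. The lowest were Paneth-like cells, the antimicrobial cells of the crypt base, at 11.3 to 18.0 CPM and enterocyte-like cells at 8.53 to 24.8 CPM of *Ccnd1*, and these ranges overlapped. *Ccnd2* was high not only in crypt-like cells, at 532 (WT), 535 (*LApc*) and 522 CPM (*LApcL*), but also in goblet-like cells, the mucus-secreting class, at 579 (WT), 442 (*LApc*) and 482 CPM (*LApcL*). Enteroendocrine-like cells held 408 to 439 CPM of *Ccnd2*, and the ranges of these classes and of adenoma-enriched cells overlapped in a chain. *Ccnd2* had its lowest mean over libraries in Paneth-like cells, at 36.9 to 89.7 CPM, a range that overlapped that of enterocyte-like cells, which in *LApc* held 40.3 CPM. *Ccnd3* was instead highest in tuft-like cells, at 38.6 to 49.9 CPM, and enteroendocrine-like cells, at 35.9 to 45.6 CPM. Crypt-like cells held 21.3 to 26.6 CPM, below adenoma-enriched cells at 30.1 and 30.3 CPM. Paneth-like cells held the least *Ccnd3*, at 5.38 to 7.77 CPM.

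The inhibitors were distributed differently from one another. *Cdkn1a* was highest in enteroendocrine-like cells, at 615 (WT), 733 (*LApc*) and 489 CPM (*LApcL*). Tuft-like cells followed at 336 to 475 CPM and enterocyte-like cells at 253 (WT), 338 (*LApc*) and 311 CPM (*LApcL*). Crypt-like cells, at 29.5 (WT), 36.3 (*LApc*) and 34.8 CPM (*LApcL*), held the least together with Paneth-like cells, and adenoma-enriched cells stood between, at 192 (184 to 201) and 143 (141 to 145) CPM in *LApc* and *LApcL*. *Cdkn1b* had its highest levels in tuft-like cells, at 54.6 (WT), 55.5 (*LApc*) and 52.9 CPM (*LApcL*), and in enteroendocrine-like cells, at 41.3 to 65.4 CPM, above the 25.1 to 29.5 CPM of crypt-like cells.

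*Cdkn2b* was highest in absorptive cells. In ileal enterocyte-like cells, named from bile acid transport markers such as *Fabp6*, it was 155 (WT), 142 (*LApc*) and 109 CPM (*LApcL*), above every other class in each library. Enterocyte-like cells held 61.3 to 77.5 CPM and goblet-like cells 47.4 to 80.3 CPM of *Cdkn2b*. Adenoma-enriched cells were near the bottom of the order with tuft-like and Paneth-like cells, at 15.6 (13.2 to 18.2) CPM in *LApc* and 3.87 (3.52 to 4.26) CPM in *LApcL*, a range that overlapped that of crypt-like cells at 13.1 to 24.9 CPM. *Cdkn2a* was under 1 CPM in every class and library other than the adenoma-enriched cells of *LApc*, where 34 UMIs gave 3.41 (2.36 to 4.77) CPM. In the crypt-like cells of WT, *LApc* and *LApcL* the counts of *Cdkn2a* were 1, 2 and 1 UMIs. In the enterocyte-like cells of WT it was at 0 UMIs, which allows up to 0.414 CPM.

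**Figure D1:**
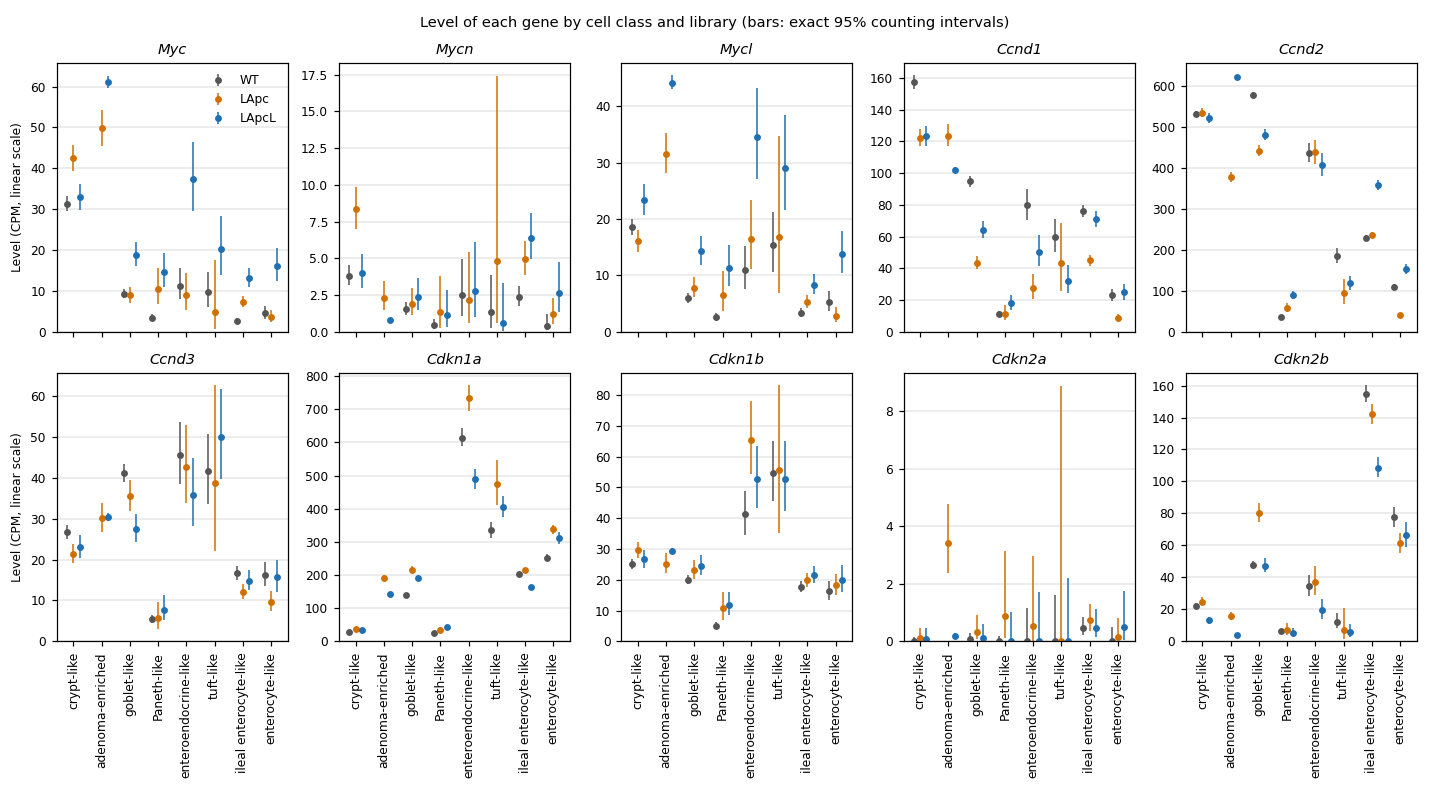
The level of each gene (CPM, linear axis from 0) is plotted for each cell class, with 1 point per library and bars for the exact 95% counting interval. *Cdkn1a* is lowest in crypt-like and Paneth-like cells, *Cdkn2b* stands highest in ileal enterocyte-like cells, and *Cdkn2a* rises off the axis in adenoma-enriched cells of *LApc*, at 3.41 CPM.

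Genes of adenoma-enriched cells were also counted in other classes of *LApcL*, and in the differentiated classes *Myc* and *Mycl* moved with them. A fixed list of 7 genes, called the adenoma lead genes here, held *Sox17*, *Msx1*, *Nkd1*, *Notum*, *Wif1*, *Dkk2* and *Dkk3*. They summed to 1239 (*LApc*) and 867 CPM (*LApcL*) in adenoma-enriched cells, and to 13.2 and 82.9 CPM in crypt-like cells. Their summed level in the *LApcL* enterocyte-like cells was 20.9% of that in its adenoma-enriched cells, and in *LApc* 1.16%. Beside it, *Myc* in the *LApcL* enterocyte-like cells was at 26.4% of its adenoma-enriched level, *Mycl* at 31.1%, *Ccnd1* at 24.4% and *Ccnd2* at 24.4%. In *LApc* enterocyte-like cells *Myc* stood at 7.09% and *Ccnd2* at 10.7%. The 7 genes reached 54.7% in enteroendocrine-like and 45.7% in tuft-like cells of *LApcL*, against 5.24% and 10.9% in *LApc*. Crypt-like cells of *LApcL* held 9.56% of their summed adenoma-enriched level and those of *LApc* 1.07%. There *Myc* went the other way, at 53.8% in *LApcL* and 85.3% in *LApc*, and *Mycl* was at 52.8% and 50.9%. *Sox17* alone was lower than the sum in *LApcL*, at 35.3% in enteroendocrine-like and 24.5% in tuft-like cells, against 2.34% and 12.0% in *LApc*. The higher *Myc* and *Mycl* of the differentiated classes in *LApcL* thus moved with adenoma transcripts, whose part in these levels was not tested.

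**Figure D2:**
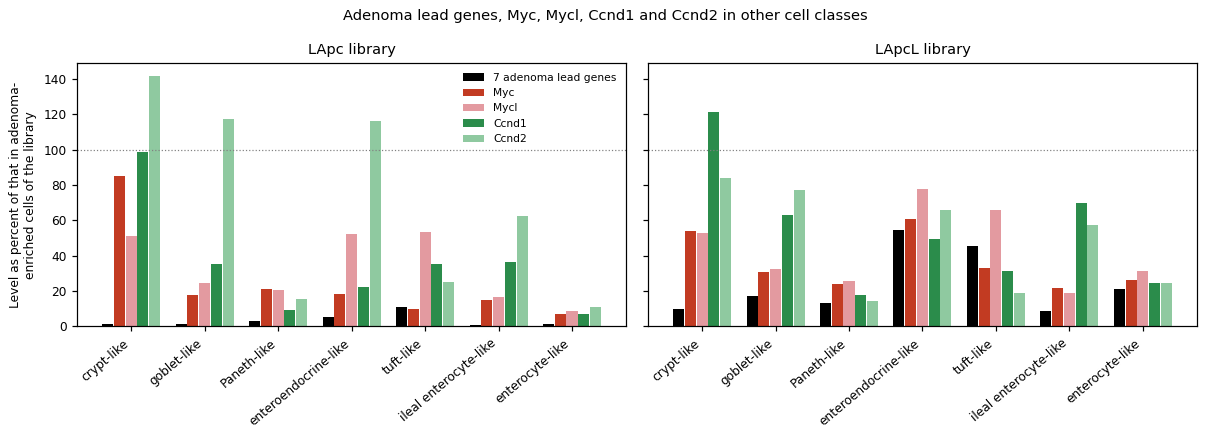
Bars give the summed adenoma lead genes, *Myc*, *Mycl*, *Ccnd1* and *Ccnd2* in each other class as a percent of their level in adenoma-enriched cells of the same library (dotted line at 100). The lead genes reach 54.7% in enteroendocrine-like cells of *LApcL* and 5.24% in those of *LApc*.

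From crypt-like to enterocyte-like cells members went in both directions. *Myc*, *Mycl*, *Ccnd1* and *Ccnd2* were lower and *Cdkn1a* and *Cdkn2b* higher by 1.5-fold or more in each of the 3 libraries. Of the 10 members, 8 had a mean of at least 5 CPM over the 2 classes, the limit for all counts below. In WT, 2 were higher and 6 lower by 1.5-fold or more, in *LApc* 2 and 6, and in *LApcL* 2 and 4, where 24.5%, 26.0% and 28.7% of all genes tested were higher and 38.5%, 44.0% and 34.2% lower. The counts of higher members lay near the shares of all genes. *Cdkn1a* and *Cdkn2b* were the higher members. The log2 ratio of *Cdkn1a* was 3.10 (95% interval 2.99 to 3.21), 3.22 (3.09 to 3.35) and 3.16 (3.00 to 3.32), in the order WT, *LApc*, *LApcL*. That of *Cdkn2b* was 1.79 (1.63 to 1.95), 1.30 (1.10 to 1.503) and 2.35 (2.06 to 2.64). Both inhibitors were thus several-fold higher in enterocyte-like cells of each library. *Ccnd1* went the other way, with log2 ratios of -2.78 (-3.01 to -2.56), -3.84 (-4.24 to -3.46) and -2.31 (-2.62 to -2.02) in that order. *Myc* had log2 ratios of -2.78 (-3.33 to -2.28) in WT and -3.59 (-4.24 to -3.00) in *LApc*, but -1.03 (-1.42 to -0.65) in *LApcL*, the library whose enterocyte-like cells held adenoma transcripts. *Ccnd3* and *Cdkn1b* were the further lower members of WT and *LApc*, and in *LApcL* they stayed short of 1.5-fold. The log2 ratios of *Ccnd3* were -0.71 (-0.999 to -0.43), -1.13 (-1.54 to -0.75) and -0.56 (-0.97 to -0.17) and those of *Cdkn1b* -0.62 (-0.91 to -0.34), -0.70 (-0.99 to -0.41) and -0.41 (-0.78 to -0.059), again in the order WT, *LApc*, *LApcL*. The scaling by trimmed means (TMM), which sets the bulk of genes to no change, put the shift of that bulk at -0.19 in WT, -0.35 in *LApc* and -0.069 in *LApcL*, and taking it out turned none of these directions. It ended 3 of these calls, *Ccnd3* in WT at -0.52 and *Cdkn1b* in WT and *LApc* at -0.43 and -0.35, so that 6 members passed 1.5-fold in WT and 7 in *LApc* in place of 8 each. Among all genes past 1.5-fold in *LApc*, 37.2% were higher, and 49.4% with TMM scaling.

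Within enterocyte-like cells the inhibitors parted. Cells were divided into tertiles by their share of *Apoa1*, *Apoa4* and *Apoc3*, apolipoproteins of mature enterocytes, with limits set over the 3 libraries weighted equally. From the lowest to the highest tertile these held 362, 294 and 131 cells of WT, 314, 451 and 608 of *LApc* and 180, 172 and 227 of *LApcL*. *Cdkn1a* was 212 CPM in the lowest and 338 CPM in the highest tertile of WT, a log2 ratio of 0.67 (0.48 to 0.86), and the ratio was 0.41 (0.26 to 0.56) in *LApc* and 0.60 (0.41 to 0.80) in *LApcL*. *Cdkn2b* did not follow it, with ratios of 0.0079 (-0.39 to 0.39), -1.17 (-1.54 to -0.82) and -0.56 (-1.001 to -0.13). *Ccnd2* was 163 CPM in the lowest and 28.4 CPM in the highest tertile of WT, and its ratios were -2.52 (-3.12 to -1.98), -0.86 (-1.31 to -0.42) and -2.46 (-2.89 to -2.04). The lowest tertile of *LApcL* held 24.3 CPM of *Myc* and its highest tertile 7.84 CPM, against 4.75 and 3.503 CPM in *LApc*.

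Between the crypt-like cells of any pair of the 3 libraries, 1 or 2 members differed past 1.5-fold. Between *LApc* and WT, 1 of the 9 members at 5 CPM or more was higher by 1.5-fold and 0 lower, where 5.95% of all genes tested were higher and 2.67% lower. It was *Mycn*, at 8.33 against 3.82 CPM, a log2 ratio of 1.12 (95% interval 0.77 to 1.48). *Myc* was 1.36-fold higher in *LApc*, a log2 ratio of 0.44 (0.30 to 0.58) that did not reach 1.5-fold. Between *LApcL* and WT, 0 of the 8 members at 5 CPM or more were higher and 1 lower, with 3.80% and 4.05% of all genes. It was *Cdkn2b*, at 13.1 against 22.4 CPM, a log2 ratio of -0.78 (-1.03 to -0.53). Between *LApcL* and *LApc*, 2 of the 9 members at 5 CPM or more, *Cdkn2b* and *Mycn*, were lower and 0 higher. Of all genes 4.47% were lower and 1.64% higher. *Mycl* was higher short of that limit, at 0.54 (0.29 to 0.79), and past it with TMM scaling, at 0.61. The log2 ratios of *Cdkn2b* and *Mycn* were -0.93 (-1.204 to -0.66) and -1.06 (-1.56 to -0.58). *Ccnd2* differed little, with log2 ratios in the same order of 0.008 (-0.029 to 0.045), -0.028 (-0.069 to 0.013) and -0.036 (-0.083 to 0.011), the first of which turned to -0.072 and the last to 0.03 with TMM scaling. Among all genes past 1.5-fold between *LApc* and WT, 69.0% were higher, and 55.1% with TMM scaling. Among all genes past 1.5-fold between *LApcL* and *LApc*, 26.8% were higher, and 37.8% with TMM scaling.

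Enterocyte transcripts moved with *Cdkn2b* in these cells. Ileal enterocyte markers summed to 707, 569.9 and 202 CPM in the crypt-like cells of WT, *LApc* and *LApcL*, and enterocyte markers to 4066, 5097 and 2600 CPM. Of the 9 ileal markers 7, 7 and 5 were over 10 CPM in the same order, and 0, 1 and 0 at 0. The part of these transcripts in the *Cdkn2b* difference was not tested. Within the crypt-like cells, *Cdkn2b* was 4.66, 5.61 and 2.38 CPM in the subcluster led by the stem cell gene *Olfm4*, 24.0, 24.4 and 14.1 CPM in the one led by *Dmbt1*, and 50.6, 46.5 and 35.6 CPM in the one led by *Reg3b*, for WT, *LApc* and *LApcL*. The *LApcL* library was lowest in each of these subclusters. *Myc* was highest in the *Olfm4*-led cells, at 50.1, 61.2 and 45.7 CPM, and *Ccnd1* in the *Reg3b*-led cells, at 322, 193 and 195 CPM.

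Adenoma-enriched cells held more of the p21 transcript and of *Mycl* than the crypt-like cells of their own library, and less of the p15 transcript, although of these differences only that of p21 in *LApc* passed 1.5-fold under every alternative. *Cdkn1a* was 192 against 36.3 CPM in *LApc*, a 5.29-fold difference with a log2 ratio of 2.40 (95% interval 2.27 to 2.54). In *LApcL* it was 143 against 34.8 CPM, 4.11-fold, a log2 ratio of 2.04 (1.90 to 2.18). This was the largest ratio of a member at 5 CPM or more in either library. With adenoma-enriched cells called by at least 2 UMIs of the 7 adenoma lead genes named above it was 1.52 and 0.20, a call under which 72.4% of the crypt-like cells of *LApcL* were cells of the adenoma-enriched subclusters. *Mycl* had a log2 ratio of 0.97 (0.73 to 1.22) in *LApc* and of 0.92 (0.75 to 1.10) for the cells of *LApcL*. Its call ended in *LApcL* at 0.10 with cells called by transcripts, and at 0.56 among cells with 0 or 1 UMI of the S/G2/M genes described further on, and in *LApc* at 0.54 against the *Olfm4*-led crypt-like cells alone. *Myc* passed 1.5-fold only in *LApcL*, at 0.90 (0.75 to 1.04), and in *LApc* its ratio was 0.23 (0.059 to 0.40), which turned to -0.042 with TMM scaling. Under the same 3 alternatives *Myc* in *LApcL* was at 0.22, 0.18 and 0.42, all short of 1.5-fold. *Cdkn2b* was lower in both, with ratios of -0.68 (-0.95 to -0.41) and -1.75 (-2.02 to -1.48), and against the *Olfm4*-led crypt-like cells alone it was higher, with ratios of 1.47 and 0.71. Among cells with 0 or 1 S/G2/M UMI its ratios turned to 0.0016 and 1.15, the last on 2 crypt-like UMIs. *Mycn* was lower in *LApc*, at -1.85 (-2.56 to -1.21), and in *LApcL* it was at 0.764 against 4.00 CPM, below the limit for counting.

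In all, 2 members were higher and 2 lower in *LApc*, where 27.1% of all genes were higher and 11.2% lower. In *LApcL* 3 members were higher and 1 lower, where the shares of all genes were 17.4% and 7.76%. TMM scaling lowered the ratios by 0.27 in *LApc* and 0.16 in *LApcL*. Among all genes past 1.5-fold in *LApc*, 70.8% were higher, and 47.0% with TMM scaling. Among all genes past 1.5-fold in *LApcL*, 69.2% were higher, and 53.02% with TMM scaling. *Ccnd2* was lower in the adenoma-enriched cells of *LApc*, at -0.51 (-0.56 to -0.45), and higher in those of *LApcL*, at 0.25 (0.22 to 0.29). With TMM scaling these were -0.78 and 0.094, so the signs were opposite under both scalings, and that of *LApc* passed 1.5-fold with TMM scaling. *Ccnd1* was at 0.016 (-0.088 to 0.12) in *LApc*, or -0.25 with TMM scaling, and -0.28 (-0.35 to -0.20) in *LApcL*. *Ccnd3* was 0.50 (0.27 to 0.73) and 0.39 (0.22 to 0.57), and *Cdkn1b* -0.23 (-0.46 to -0.0042) and 0.14 (-0.02 to 0.31), the last turning to -0.015 with TMM scaling. Transcripts of other cell types moved with these classes: tuft markers, from a class with high *Cdkn1a*, summed to 85.3 CPM in the adenoma-enriched and 10.1 CPM in the crypt-like cells of *LApc*, and 32.5 and 18.9 CPM in *LApcL*. Of the 11 tuft markers, 1 and 1 were over 10 CPM in the adenoma-enriched cells of *LApc* and *LApcL*, and 2 and 0 at 0. Enteroendocrine markers summed to 195 and 119.8 CPM in *LApc*, and 79.9 and 80.1 CPM in *LApcL*. Immune markers went from 19.9 to 72.3 CPM in *LApc* between the crypt-like and the adenoma-enriched cells, and from 0.979 to 3.19 CPM in *LApcL*. The 8 stroma markers went from 0.877 to 29.7 CPM and from 1.39 to 13.7 CPM, with 1 over 10 CPM in the adenoma-enriched cells of either library and 4 (*LApc*) and 3 (*LApcL*) at 0. Enterocyte markers were lower in the adenoma-enriched cells, at 3410 against 5097 CPM in *LApc* and 1462 against 2600 CPM in *LApcL*. The part of these cell types in the ratios was not tested.

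**Figure D3:**
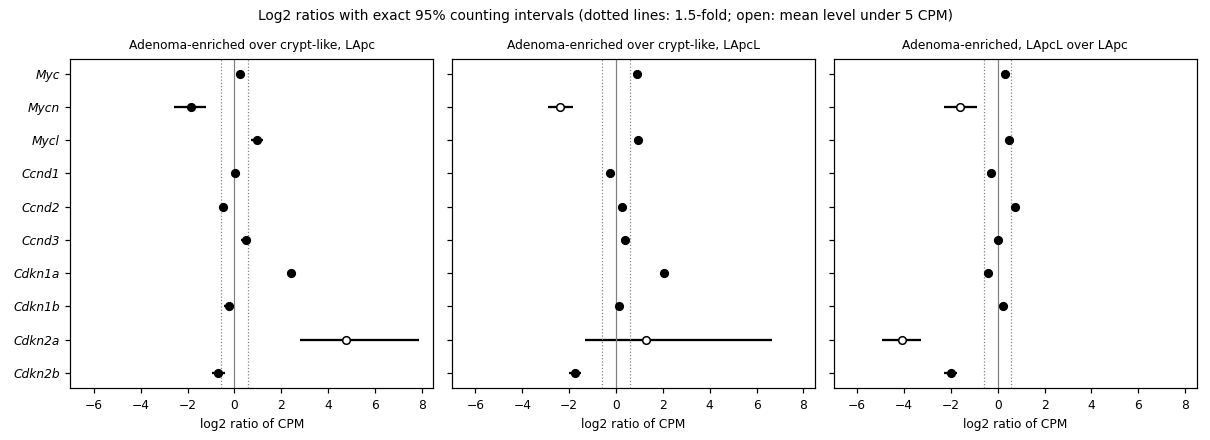
Each panel plots the log2 ratio of CPM of the 10 genes in a comparison, with bars for exact 95% counting intervals, dotted lines at 1.5-fold and open points for genes with a mean under 5 CPM. *Cdkn1a* lies right of the line in adenoma-enriched over crypt-like cells of both libraries, at 2.40 and 2.04.

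Between the adenoma-enriched cells of *LApcL* and *LApc*, 1 of the 8 members at 5 CPM or more was higher by 1.5-fold in *LApcL* and 1 lower. Of all genes 3.47% were higher and 16.1% lower. The sides differ in *Lef1* genotype, mouse, library and day, which cannot be told apart. TMM scaling put the shift of the bulk of genes at -0.23. Among all genes past 1.5-fold in this comparison, 17.7% were higher, and 49.3% with TMM scaling. *Ccnd2* was 623 (618 to 627) CPM in *LApcL* and 377 (365 to 389) CPM in *LApc*, a log2 ratio of 0.72 (95% interval 0.68 to 0.77). *Cdkn2b* was 3.87 against 15.6 CPM, a log2 ratio of -2.01 (-2.27 to -1.73). The D cyclin was thus higher and the Ink4 transcript lower in *LApcL*, and TMM scaling moved the ratios to 0.95 and -1.78. In cells with more *S100g* than *Wfdc18* UMIs *Ccnd2* was at 0.577, just short of 1.5-fold. Immune markers, which moved with the libraries too, summed to 72.3 CPM in the adenoma-enriched cells of *LApc* and 3.19 CPM in those of *LApcL*, and enterocyte markers to 3410 and 1462 CPM, and their part was not tested. Of the 13 immune markers 3 and 0 were over 10 CPM and 0 and 0 at 0. *Cdkn1a* was lower in *LApcL*, at -0.43 (-0.49 to -0.36), and *Mycl* higher, at 0.49 (0.32 to 0.66), both short of 1.5-fold. With TMM scaling *Mycl* was at 0.72, past that limit. *Myc* was at 0.30 (0.17 to 0.43), or 0.53 with TMM scaling, and *Cdkn1b* at 0.22 (0.037 to 0.41), or 0.45. *Ccnd1* was at -0.28 (-0.36 to -0.19), or -0.048, and *Ccnd3* at 0.0096 (-0.16 to 0.18), or 0.24. All of these stayed short of 1.5-fold under both scalings.

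*Cdkn2a* showed the widest gap between these libraries, on few counts. In *LApc*, 23 of 1258 adenoma-enriched cells held a UMI of it, and in *LApcL* 19 of 9190, or 1.83% (1.16 to 2.73) and 0.207% (0.125 to 0.323). The *LApcL* cells were the deeper ones, with a median of 11479 UMIs against 7524.5. The log2 ratio of *Cdkn2a*, *LApcL* over *LApc*, was -4.09 (-4.94 to -3.28). Of the 23 *LApc* cells with *Cdkn2a*, 4 also held a UMI of an immune marker, which 4.77% of the class did. In enterocyte-like cells the shares were 0.0728% in *LApc* and 0.345% in *LApcL*. The last rests on 2 of 579 cells (0.0419 to 1.24), in a class that held adenoma transcripts. Their highest tertile held 0 UMIs of *Cdkn2a* in 608 cells of *LApc* and 227 of *LApcL*, which allows up to 0.605% and 1.61%. These counts are too few to set the *LApcL* share against free RNA. Ileal enterocyte-like cells held *Cdkn2a* in 10, 11 and 5 cells of WT, *LApc* and *LApcL*, or 0.508%, 0.520% and 0.450%.

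The adenoma-enriched cells fell into 5 subclusters, and the differences between *LApcL* and *LApc* were read in each. *Cdkn2b* was lower in *LApcL* in 5 of 5, with log2 ratios of -1.42 (-1.79 to -1.03) in the subcluster led by *Wfdc18*, -1.44 (-2.15 to -0.66) by *Mt4*, -1.97 (-2.69 to -1.18) by *S100g*, -2.36 (-4.10 to -0.62) by *Vim* and -2.38 (-3.25 to -1.44) by *Atp4a*. *Ccnd2* was higher in 4 of 5, with ratios of 1.10 (1.02 to 1.18), 1.05 (0.93 to 1.18), 0.82 (0.69 to 0.95) and 0.59 (0.41 to 0.77) in the *Wfdc18*-, *S100g*-, *Mt4*- and *Vim*-led cells. The exception was the *Atp4a*-led subcluster, with *Ccnd2* at 945 (*LApc*) and 977 CPM (*LApcL*), above every other subcluster and class in both libraries. The *Atp4a*-led cells were also those with the least *Ccnd1*, at 46.0 and 52.0 CPM, so the levels of these cyclins went in opposite directions there. *Cdkn1a* was lower in *LApcL* in 3 subclusters and higher in 1, the *Vim*-led, where it was 65.4 and 95.3 CPM, the lowest of the 5 in each library. The *Wfdc18*-led cells held the most *Cdkn1a* in *LApcL*, at 207 CPM, and 242 CPM in *LApc*.

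The makeup of the class differed between the libraries, since the *Wfdc18*-led cells were 44.1% of the adenoma-enriched cells of *LApc* and 18.3% of those of *LApcL*. *Mycl* was highest in the *Vim*-led cells, at 58.4 and 67.3 CPM in *LApc* and *LApcL*, and higher in *LApcL* in 2 of 5 subclusters, as was *Myc*. *Ccnd3* and *Cdkn1b* had intervals that included 0 in each of the 5. In cells with more *S100g* than *Wfdc18* UMIs, *Cdkn2b* stood at 9.83 (*LApc*) and 3.66 CPM (*LApcL*), and in the rest 18.3 and 8.77 CPM. *Ccnd2* in the same cells was 418 and 623 CPM, and in the rest 357 and 607 CPM. Both differences thus had the same direction in either state.

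**Figure D4:**
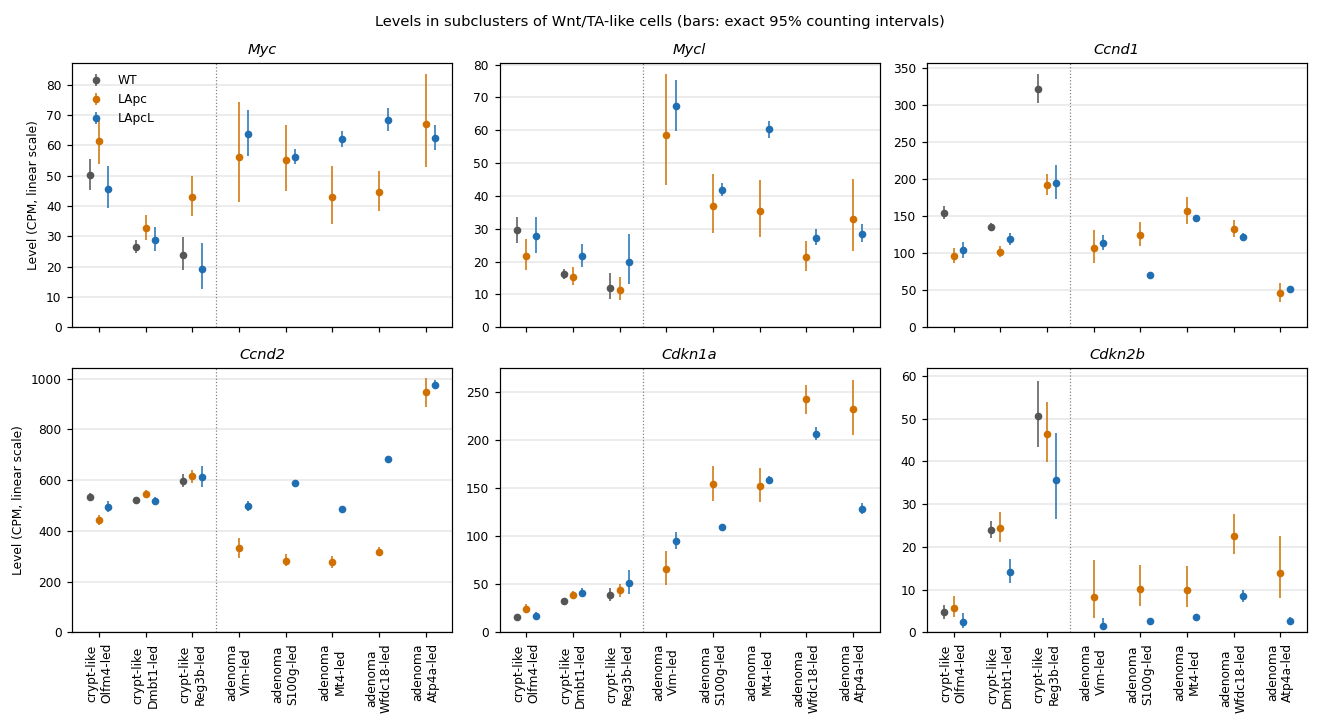
The level of each gene (CPM, linear axis from 0) is plotted in the subclusters of crypt-like cells (left of the dotted line) and adenoma-enriched cells (right of it), with 1 point per library and bars for exact 95% counting intervals. *Cdkn2b* of *LApcL* lies below that of *LApc* in all 5 adenoma-enriched subclusters, and *Ccnd2* is highest in the *Atp4a*-led cells, at 945 and 977 CPM.

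Cells were then ordered by their UMIs of a list of 40 S/G2/M genes after each cell had been thinned to 3000 UMIs, a range of a score and not a cell type. The limit at 6 UMIs had 49 and 623 adenoma-enriched cells of *LApc* and *LApcL* at 5 UMIs and 39 and 587 at 6, and the part of free RNA in these UMIs was not tested. Cells with 6 or more such UMIs were 32.4% of the adenoma-enriched cells of *LApc*, 51.5% of those of *LApcL*, and 71.6%, 60.7% and 62.2% of crypt-like cells in WT, *LApc* and *LApcL*. In adenoma-enriched cells, with their 5 subclusters pooled, *Ccnd1* and *Ccnd2* ran against each other. *Ccnd1* in *LApcL* was 76.8 CPM in cells with 0 to 1 such UMIs, 98.1 CPM with 2 to 5 and 109 CPM with 6 or more. *Ccnd2* in the same cells was 753, 693 and 558 CPM. Between the outer ranges the log2 ratio of *Ccnd1* was 0.51 (0.41 to 0.60) in *LApcL* and 0.76 (0.55 to 0.98) in *LApc*, and that of *Ccnd2* -0.43 (-0.46 to -0.40) and -0.63 (-0.74 to -0.52). *Mycl* was higher in cells with more S/G2/M transcripts, with ratios of 0.76 (0.61 to 0.91) in *LApcL* and 0.60 (0.18 to 1.02) in *LApc*. For *Myc* the ratio was -0.11 (-0.22 to -0.00085) and 0.064 (-0.25 to 0.38). The pooled subclusters differed in the cell cycle gene *Mki67*. It was 18.9, 21.2 and 22.1 CPM in the *Atp4a*-, *Vim*- and *Wfdc18*-led cells, and 124 and 155 CPM in the *Mt4*- and *S100g*-led cells. The ratios were not read within subclusters, so the part of subcluster makeup in them was not tested.

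*Cdkn1a* and *Cdkn2b* were lower in adenoma-enriched cells with more S/G2/M transcripts, again with the subclusters pooled and the part of their makeup not tested. *Cdkn1a* was 228 CPM in the cells of *LApc* with 0 to 1 such UMIs and 174 CPM in those with 6 or more, and 176 and 139 CPM in *LApcL*. Crypt-like cells with 6 or more held 31.2, 38.3 and 39.3 CPM in WT, *LApc* and *LApcL*. The *Cdkn1a* difference between these classes was therefore present among cells with the same range of S/G2/M transcripts. *Cdkn2b* had log2 ratios of -1.24 (-1.60 to -0.86) in *LApcL* and -0.89 (-1.44 to -0.35) in *LApc* between the outer ranges. Goblet-like cells showed a wider span. Their *Cdkn1a* was 173 CPM with 0 to 1 and 58.4 CPM with 6 or more in WT, and the log2 ratios were -1.57 (-1.73 to -1.42), -2.19 (-2.56 to -1.83) and -1.65 (-1.94 to -1.37) in WT, *LApc* and *LApcL*. *Ccnd1* in goblet-like cells had ratios of 1.06 (0.95 to 1.18), 2.24 (1.91 to 2.57) and 1.20 (0.92 to 1.49), and *Mycl* 1.83 (1.35 to 2.30), 1.71 (0.86 to 2.52) and 1.13 (0.47 to 1.78). For *Cdkn1b* they were 0.55 (0.28 to 0.81), 0.84 (0.33 to 1.33) and 0.093 (-0.47 to 0.63), so this inhibitor did not go with the others. In crypt-like cells *Myc* was lower in cells with 6 or more S/G2/M UMIs, with log2 ratios of -0.77 (-1.15 to -0.38), -0.40 (-0.77 to -0.01) and -0.92 (-1.44 to -0.37), and *Ccnd2* higher, with ratios of 0.30 (0.18 to 0.42), 0.41 (0.29 to 0.54) and 0.22 (0.044 to 0.39).

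**Figure D5:**
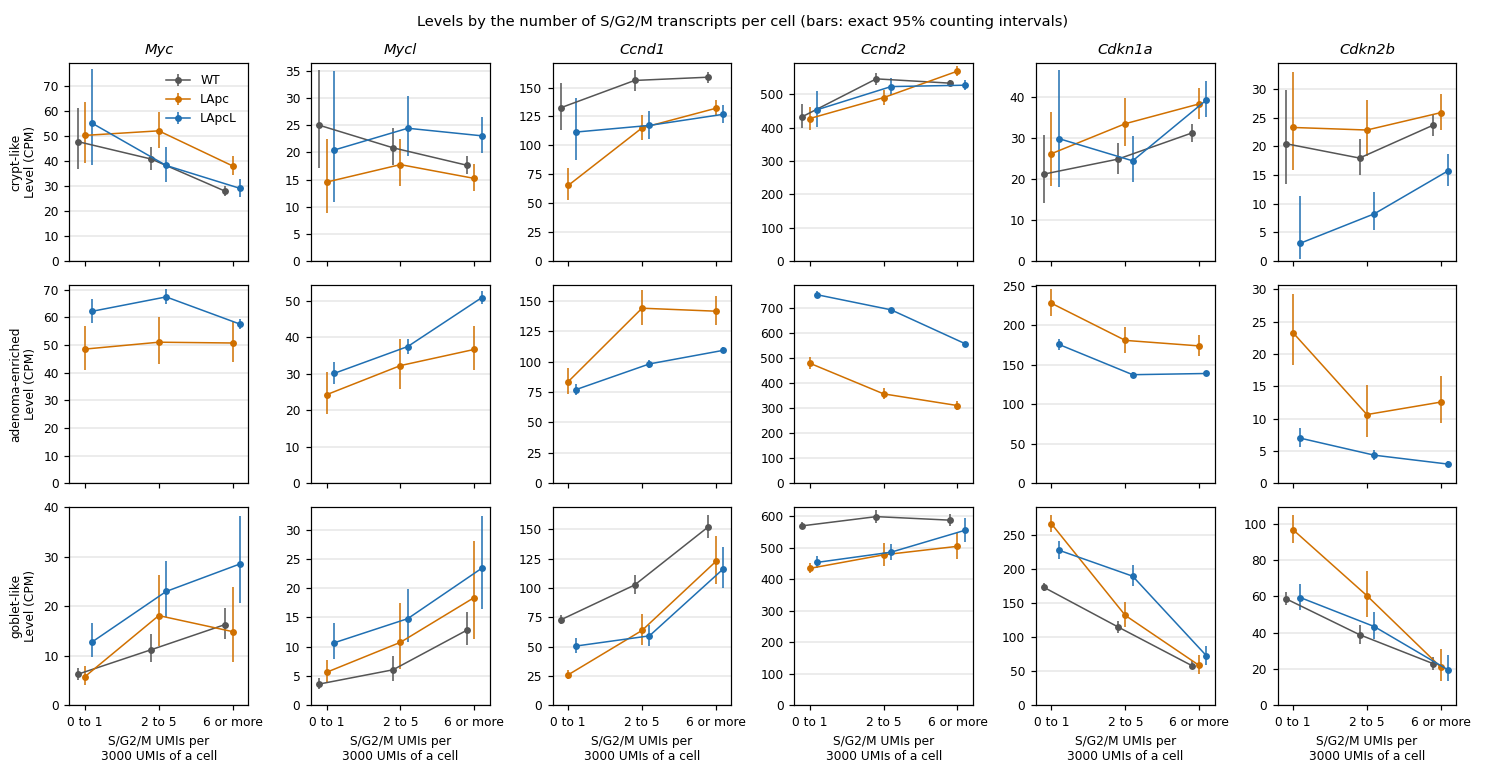
The level of each gene (CPM) is plotted against the range of S/G2/M UMIs per 3000 UMIs of a cell, with rows for crypt-like, adenoma-enriched and goblet-like cells, a line per library and bars for exact 95% counting intervals. In goblet-like cells of WT *Cdkn1a* goes from 173 CPM to 58.4 CPM, and *Ccnd1* from 72.9 to 152 CPM.

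Among other genes of the pathway, several targets of p53 were higher in adenoma-enriched cells. The list held 19 genes, *Trp53* itself among them. Of these, 16 were at 5 CPM or more in *LApc*. There 10 were higher and 1 lower by 1.5-fold than in crypt-like cells, with a median log2 ratio of 1.04. Over all genes the median was 0.20, and 27.1% were higher and 11.2% lower. In *LApcL* 7 of 14 were higher and 1 lower, with a median of 0.58, where the median of all genes was 0.17 and 17.4% were higher and 7.76% lower. *Plk2*, a kinase, stood at log2 ratios of 5.42 (4.68 to 6.27) for *LApc* and 3.31 (2.87 to 3.79) for *LApcL*, and *Phlda3*, an inhibitor of Akt, 4.98 (4.40 to 5.62) and 3.20 (2.71 to 3.74). *Gdf15*, a stress-induced secreted factor, was 32.1 against 2.13 CPM in *LApc*. Not all targets went this way: *Sesn1* was at -0.78 (-1.32 to -0.26) and -0.97 (-1.31 to -0.62). Between the adenoma-enriched cells of *LApcL* and *LApc*, 6 of 15 were lower and 0 higher, with a median of -0.36 against -0.11 over all genes, of which 16.1% were lower and 3.47% higher. *Gdf15* led it at -3.46 (-3.69 to -3.24), followed by the antiproliferative gene *Btg2* at -1.07 (-1.18 to -0.97), and *Trp53* itself was at 0.046 (-0.03 to 0.12).

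Of the 30 genes of the G1/S machinery, 3 were higher and 6 lower in the adenoma-enriched cells of *LApc*, with a median of -0.23, and 1 and 6 in those of *LApcL*, with a median of -0.059. All genes had 27.1% higher and 11.2% lower with a median of 0.20 in *LApc*, and 17.4% and 7.76% with a median of 0.17 in *LApcL*. The further Cip/Kip inhibitor *Cdkn1c*, which encodes p57, was 113 against 2.13 CPM in *LApc* and 35.0 against 2.12 CPM in *LApcL*, log2 ratios of 5.73 (5.24 to 6.27) and 4.04 (3.49 to 4.66). The Ink4 inhibitor *Cdkn2c* went with *Cdkn2b*, at -1.75 (-2.17 to -1.35) and -1.17 (-1.40 to -0.94). In the adenoma-enriched cells of *LApcL*, *Cdkn1c* was lower than in *LApc*, at -1.70 (-1.79 to -1.60), as was the D cyclin partner *Cdk6*, at -0.85 (-0.96 to -0.73), and 3 of the 28 genes of the list at 5 CPM or more were lower and 0 higher, against 16.1% and 3.47% of all genes. The S/G2/M list had 0 higher and 13 lower of 40 in the adenoma-enriched cells of *LApc*, with a median of -0.39, and 1 higher and 3 lower in *LApcL*, with a median of -0.13. Between *LApcL* and *LApc* 4 were higher and 1 lower, with a median of 0.35 against -0.11 over all genes. In enterocyte-like cells 40 of 40 were lower than in crypt-like cells of WT, with a median of -2.93, where 38.5% of all genes were lower. Some of the 40, such as *Mki67* and *Top2a*, were also markers by which stem and transit-amplifying cells were named. The list was open to the clustering as well, so its direction between these classes was in part set by how they were made.

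Partners of Myc and genes of growth were less uniform. Of the 20 genes of the Max network 7 were higher and 4 lower in the adenoma-enriched cells of *LApc*, and 4 and 2 in *LApcL*, with medians of 0.37 and 0.25. These counts stand beside 27.1% higher and 11.2% lower of all genes in *LApc* and 17.4% and 7.76% in *LApcL*, with medians of 0.20 and 0.17. *Mxd1*, which competes with Myc for Max, was higher, at 1.46 (1.20 to 1.72) and 1.48 (1.15 to 1.83), and the glucose-responsive factor *Mlxipl* lower, at -2.17 (-2.46 to -1.89) and -1.37 (-1.51 to -1.23). The kinase gene *Pim1* was 49.0 CPM in the adenoma-enriched cells of *LApc* and 16.2 CPM in those of *LApcL*, -1.60 (-1.74 to -1.45), and in crypt-like cells it was higher in *LApc* than in WT, at 1.07 (0.85 to 1.29). Of 45 Myc-related growth genes 4 were higher and 1 lower by 1.5-fold in the adenoma-enriched cells of *LApcL* than of *LApc*, with a median of 0.30 against -0.11 over all genes, of which 3.47% were higher and 16.1% lower. The mitochondrial chaperonins *Hspd1* and *Hspe1* led them, at 0.66 (0.61 to 0.71) and 0.61 (0.58 to 0.64), and the hexokinase gene *Hk2* was the lower one, at -0.79 (-0.89 to -0.68). Against crypt-like cells the growth genes had a median of 0.043 in *LApc* and 0.21 in *LApcL*. In enterocyte-like cells of WT 41 of 44 were lower than in crypt-like cells and 1 higher, against 38.5% and 24.5% of all genes.

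The genes whose levels followed each member most closely were ranked by Pearson's r of log2(CPM + 5) over 23 points, a point being a class in a library, among 5035 genes with a mean of at least 20 CPM. The points of a library share its depth, mouse and free RNA, and r is given as a description. For *Myc* they were *Axin2* (r = 0.94), *2700094K13Rik* (r = 0.94) and *Rgcc* (r = 0.93), of which *Axin2* is a negative regulator and target of the Wnt pathway. *Mycl* was followed by *Ifitm2* (r = 0.95), *Hmgn1* (r = 0.94) and *Ntmt1* (r = 0.94). *Ccnd1* was followed by *Ybx3* (r = 0.97), *Npm3* (r = 0.95) and *Emg1* (r = 0.95), and *Npm3* and *Emg1* serve ribosome assembly. For *Ccnd2* the genes were *Tmem97* (r = 0.96), *Esrp1* (r = 0.94) and *Polr2e* (r = 0.93), and for *Ccnd3* *Prkrip1* (r = 0.96), *Pcbd1* (r = 0.95) and *Mrfap1* (r = 0.95). Among the inhibitors, *Cdkn1a* was followed by *Kdm7a* (r = 0.94), *Ccdc68* (r = 0.93) and *Sqstm1* (r = 0.93), of which *Sqstm1* encodes an autophagy receptor. *Cdkn1b* was followed by *Gtf2f2* (r = 0.96), *Tmem42* (r = 0.95) and *Kmt2a* (r = 0.95), and *Cdkn2b* by *Abcg2* (r = 0.93), *Slc35b1* (r = 0.92) and *Il17rc* (r = 0.92), of which *Abcg2* encodes an apical efflux transporter. *Mycn* and *Cdkn2a* were below 20 CPM in all classes and were not ranked.

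Shares of cells with a UMI were read after thinning to 3000 UMIs, which left out 28 and 19 shallower adenoma-enriched cells of *LApc* and *LApcL*, against the highest tertile of enterocyte-like cells as the reference for free RNA. *Myc* was found in 13.3% of the adenoma-enriched cells of *LApc* and 16.9% of those of *LApcL*, against 1.77% and 1.83% in the reference. Without thinning these shares were 27.7% and 46.3%, against 1.48% and 4.41%. *Ccnd2* was found in 51.0% and 74.2% of adenoma-enriched cells, against 6.65% and 14.2% in the reference, and without thinning in 73.2% and 95.3%, against 10.4% and 20.7%. For *Cdkn1a* the same tertile is no reference, since it holds much of the transcript. In adenoma-enriched cells *Cdkn1a* was in 33.0% (*LApc*) and 28.5% (*LApcL*), and in crypt-like cells in 7.97%, 9.30% and 9.82% of WT, *LApc* and *LApcL*.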

How the data were processed

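Single-cell RNA sequencing of sorted epithelium had been run on the Chromium platform, with 1 library each of WT, *LApc* and *LApcL*. Per the submitters' processing notes and the study's methods, the authors quantified reads with Cell Ranger 2.1.1 on GRCm38 (mm10), and the deposited values are raw UMI counts per gene and barcode, without normalization. Whether counting used strand is not given in the sources used here, and *Ccnd1*, *Ccnd2* and *Ccnd3* overlap genes of the opposite strand. No per-cell annotation was used here, so the classes were rebuilt and may differ from the study's.

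Barcodes in the outer 1% at either end of the number of genes detected, and those with over 20% mitochondrial UMIs, were removed per library. Doublets were scored with Scrublet (scanpy 1.11.5). Its automatic threshold marked 2065, 4 and 755 cells, so the cells with the highest scores were taken out up to the rate expected from the number of barcodes (9.16%, 10.6% and 13.9%). Seurat 5.3.0 under R 4.3.3 gave canonical correlation integration over 956 features, 20 components and Louvain clusters at resolution 0.2. From the features 124 genes were left out, the members and the lists other than that of S/G2/M genes. The S/G2/M genes could therefore take part in the clustering and subclustering. Clusters were named where at least 3 fixed markers were raised, with limits set after the clusters had been seen. Stem and transit-amplifying cells were clustered again at 0.4.

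UMIs were summed per class and library and divided by the total (CPM), so rare transcripts rest on few counts and 0 UMIs allow up to 3. Levels carry exact Poisson, ratios exact conditional binomial and shares exact Clopper-Pearson 95% intervals (scipy 1.17.1), which do not cover variation between mice. Counts of genes past 1.5-fold took those with a mean of at least 5 CPM over the compared sides. TMM factors came from edgeR 4.0.16. The ratios and intervals were run on simulated Poisson counts, the model that the intervals assume. That run checks the calculation only and cannot show how the intervals cover variation between cells or mice. The genes named beside the members are the 3 most like each by correlation and, per list and comparison, the 3 highest and 2 lowest ratios. The members and lists were chosen with earlier results of these data known. Nothing was tested between genotypes, since each had 1 library.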

Additional observations from a re-analysis of the deposited data

Results flagged for a closer look

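*Ccnd2* differed in sign between the genotypes: its log2 ratio of adenoma-enriched over crypt-like cells was 0.25 (0.22 to 0.29) in *LApcL* and -0.51 (-0.56 to -0.45) in *LApc*. Each side is 1 library, and the difference was not tested.

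Barcodes with over 20% mitochondrial UMIs were in no comparison, and in *LApcL* they held *Mycl* and *Ccnd2* above the level in WT. Among their other UMIs *Mycl* was 35.1 (24.7 to 48.4) CPM in *LApcL*, against 5.79 (0.702 to 20.9) CPM in WT. *Ccnd2* was 343 (308 to 380.0) CPM, against 145 (108 to 191) CPM. Kept cells of *LApcL* held 38.1 and 578 CPM on the same scale, and those of WT 9.36 and 394 CPM. The barcodes left out were 413 in *LApcL* and 62 in WT, and these differences were not tested.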

How the results depend on the processing

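Of 379 alternative values of the 36 member ratios past 1.5-fold, those of enterocyte-like cells of *LApc* and *LApcL* added after seeing the data, 353 were still past it in the same direction and 4 turned. Those 4 were *Cdkn2b* in adenoma-enriched over crypt-like cells: 0.0016 in *LApc* and 1.15 in *LApcL* among cells with 0 or 1 S/G2/M UMI, where the crypt-like side of *LApcL* held 2 UMIs of it, and 1.47 and 0.71 against the *Olfm4*-led crypt-like cells only, an alternative chosen after seeing the data. Counts of members past 1.5-fold moved as follows. With adenoma-enriched cells called by transcripts they were 2 for crypt-like *LApc* over WT (1 above), 4 for *LApcL* over WT (1) and 1 for adenoma-enriched over crypt-like cells in *LApcL* (4), and 72.4% of the crypt-like cells of *LApcL* were then of the adenoma-enriched subclusters. With cells of 0 or 1 S/G2/M UMI the crypt-like counts were 3, 3 and 4 (1, 1 and 2 above). In the *Olfm4*-led cells only they were 2, 0 and 0, since *Cdkn2b* was then below 5 CPM, and 2 (4) for adenoma-enriched over crypt-like cells of *LApc*. That count was 2 at resolution 0.4, and for adenoma-enriched *LApcL* over *LApc* it was 1 (2) in cells with more *S100g* than *Wfdc18*, and the causes were not tested. Over their alternatives, *Cdkn1a* in adenoma-enriched over crypt-like cells ranged from 1.52 to 3.12 in *LApc* and 0.20 to 3.08 in *LApcL*, *Ccnd2* in *LApcL* over *LApc* from 0.58 to 0.95 and *Cdkn2b* from -2.47 to -1.42. No paired analysis was possible because each group had 1 library. Depth limits *Cdkn2a* and *Mycn* most, with under 10 CPM in every class.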

Other observations

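1 cluster, led by haemoglobin genes (*Hbb-bs*, *Hba-a1*) and pancreatic enzyme genes (*Cela2a*, *Ctrb1*), stayed unnamed. Its 177 cells of *LApc* and 264 cells of *LApcL* held 79.2 (58.0 to 106) and 79.6 (67.5 to 93.2) CPM of *Cdkn1b*. Both values were above those of each named class of the same library. That of *LApc* rests on 46 UMIs, and its interval includes the 65.4 CPM of enteroendocrine-like cells. The *LApc* cells of this cluster were shallow, with a median of 2765 UMIs. *Cdkn2b* in this cluster was 79.2 (58.0 to 106) CPM in *LApc* and 11.4 (7.13 to 17.2) CPM in *LApcL*. The adenoma lead genes were there at 5.70% of their adenoma-enriched level in *LApc* and 77.9% in *LApcL*.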
